A study of Mus musculus with 12 samples.

Results

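The genes that encode the protein part of the mitochondrial ribosome were examined in left ventricular muscle of mice after sham surgery or aortic banding, with or without hispidulin. Members were the protein-coding genes of the table whose symbol begins with Mrpl or Mrps followed by a digit. They numbered 78 of the 18079 genes listed, 49 named for the large subunit (Mrpl) and 29 named for the small subunit (Mrps). All 78 passed the filter on low values (3 or more of the 12 libraries at 1 FPKM or above) that left 11664 genes for testing. FPKM, the count of sequenced fragments scaled to transcript length and to the mapped fragments of a library, was used to compare genes and mice. Its sum over a library was not fixed, at 535235 to 567027 in the 12 mice.

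The 12 mice were C57BL/6 (C57BL/6J and male by the study's methods) and 12 weeks old at harvest by the labels, 4 weeks after surgery, while the methods give a range of ages at surgery, with 3 mice and 1 library each per group. DMSO+Sham mice had the operation without a band and daily injections of DMSO, the solvent. Hispidulin+Sham mice had the same operation and 20 mg/kg of hispidulin, a plant flavone, injected intraperitoneally each day from 1 day before surgery. DMSO+AB mice had a band tied around the descending aorta, which loads the left ventricle with pressure, and received DMSO. Hispidulin+AB mice had the band and the hispidulin injections. All 4 groups were operated on and injected, so that none of them stands for an untouched heart. Polyadenylated RNA was sequenced in single-end reads of 50 bases.

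The mitochondrial ribosome, or mitoribosome, translates the few messenger RNAs encoded by mitochondrial DNA, all of which specify subunits of the respiratory chain and ATP synthase. Its ribosomal RNAs come from the mitochondrial genome, whereas all of its proteins are encoded in the nucleus, translated in the cytosol and imported. The small subunit binds messenger RNA and decodes it, and the large subunit forms peptide bonds. The heart, which depends on oxidative phosphorylation, is rich in mitochondria and in transcripts of mitochondrial proteins.

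Nuclear genes of mitochondrial proteins often carry sites for ETS factors, NRF1 and YY1 near the start of transcription, so promoters of members were searched for these letters on both strands. RefSeq promoters (GRCm38.p6, 250 bases before to 50 after the start) were found for 69 of the 78 members, 75 promoters in all. The ETS letters CCGGAAG were present in 34.7% of these 75 promoters, against 8.86% of all 32851 promoters and 17.3% of the 11982 promoters of tested genes. The NRF1 letters CGCANGCG were present in 26.7%, against 8.21% of all and 16.8% of tested promoters.

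The YY1 letters AAGATGGCG stood in 8 of the 75 promoters (10.7%), against 1.4% of all and 2.98% of tested promoters. The Sp1 letters GGGCGG were in 52% of members' promoters, 35.7% of all and 62.4% of tested promoters. The letters TCAAGGTCA, bound by estrogen-related receptors, were in 0 of the 75 and in 0.423% of all promoters. ETS matches lay at a median of 17 bases before the start (median position -17, 31 matches), NRF1 matches at -48 (27 matches) and YY1 matches at 18.5 bases after it (8 matches). Matches of different motifs may overlap. A match of letters is a description of the sequence and does not show that a factor binds there.

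Promoters of 4 members are shown because they carry these motifs in different arrangements and belong to genes described below, the most abundant large subunit gene (Mrpl42), the most abundant small subunit gene (Mrps21), the stalk protein gene Mrpl12 and the decoding centre gene Mrps12. Each is written 5′ to 3′ on the strand of its gene, and capitals mark matches to the ETS, NRF1 or YY1 letters on either strand. Mrpl42 (chr10:95501900-95502199, minus strand) holds 1 YY1 match after the start, Mrps21 (chr3:95871465-95871764, minus strand) holds 1 NRF1 and 1 ETS match, Mrpl12 (chr11:120484387-120484686, plus strand) holds 2 NRF1 matches and Mrps12 (chr7:28741772-28742071, minus strand) holds 1 ETS match at the start.
Mrpl42: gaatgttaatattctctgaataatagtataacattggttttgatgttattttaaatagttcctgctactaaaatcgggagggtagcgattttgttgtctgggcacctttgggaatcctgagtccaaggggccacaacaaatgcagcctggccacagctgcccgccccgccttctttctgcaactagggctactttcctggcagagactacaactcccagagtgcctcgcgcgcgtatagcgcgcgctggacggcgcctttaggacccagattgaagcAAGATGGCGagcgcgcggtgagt
Mrps21: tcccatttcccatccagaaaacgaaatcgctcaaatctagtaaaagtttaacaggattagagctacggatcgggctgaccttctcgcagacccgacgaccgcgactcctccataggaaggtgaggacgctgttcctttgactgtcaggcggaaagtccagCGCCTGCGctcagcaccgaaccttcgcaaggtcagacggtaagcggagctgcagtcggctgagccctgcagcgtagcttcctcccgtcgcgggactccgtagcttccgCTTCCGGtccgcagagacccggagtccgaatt
Mrpl12: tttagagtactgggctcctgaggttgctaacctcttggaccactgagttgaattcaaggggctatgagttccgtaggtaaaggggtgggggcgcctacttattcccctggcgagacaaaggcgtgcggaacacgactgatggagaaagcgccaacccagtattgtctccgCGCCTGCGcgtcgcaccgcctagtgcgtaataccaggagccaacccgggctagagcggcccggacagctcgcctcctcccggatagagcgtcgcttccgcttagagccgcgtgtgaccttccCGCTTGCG
Mrps12: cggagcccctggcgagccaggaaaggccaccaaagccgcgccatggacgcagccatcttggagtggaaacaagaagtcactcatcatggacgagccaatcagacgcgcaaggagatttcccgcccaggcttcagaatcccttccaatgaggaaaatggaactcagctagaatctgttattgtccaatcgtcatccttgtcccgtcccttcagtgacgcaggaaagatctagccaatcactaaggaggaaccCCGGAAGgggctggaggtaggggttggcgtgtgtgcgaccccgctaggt

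Cardiomyocyte markers were detected in every library (8 of 8 genes), with a summed level of 38792 to 56358 FPKM, and the lowest sum was that of DMSO+Sham replicate 3. Fibroblast markers (8 genes) summed to 377 to 487 FPKM in DMSO+Sham and to 430 to 1025 FPKM in DMSO+AB, and atrial markers, a list of 4 genes that includes the natriuretic peptide gene Nppa, to 90.3 to 309 FPKM and 683 to 6215 FPKM. The rise of the atrial sum was not shared by the list. Between DMSO+AB and DMSO+Sham the log2 difference was positive for 1 of these 4 genes, with a median of -0.28. Hispidulin+Sham replicate 3 had 1740 FPKM of atrial markers against 207 and 267 FPKM in the other mice of its group, and 10251 FPKM of red cell markers (5 genes) against 5028 and 3451 FPKM. Over the 12 libraries, endothelial markers (6 genes) summed to 293 to 368 FPKM and macrophage markers (6 genes) to 76.7 to 176 FPKM, and no endothelial or macrophage marker was at 0 in a library. DMSO+Sham replicate 3 had the 176 FPKM of macrophage markers, against 95.7 and 76.7 FPKM in its group, and the lowest sum of smooth muscle markers (4 genes), 42.4 FPKM against up to 282 FPKM in the other mice. In bulk tissue, fewer cells of a type and less RNA per cell cannot be told apart. The part of these markers in the results was not tested.

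Mitoribosomal protein genes were expressed well above the typical gene of this tissue. Over the 12 mice the mean level of a member ran from 6.55 FPKM (Mrpl19) to 447 FPKM (Mrpl42), a 68.2-fold range, with a median of 52.2 FPKM against 8.68 FPKM over all genes tested. The median was 51.8 FPKM for large subunit genes and 52.7 FPKM for small subunit genes. The median member stood at percentile 88.0 of tested genes, and the lowest at percentile 41.7. In all, 13 members had a mean of at least 100 FPKM and 10 had a mean under 20 FPKM.

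**Figure D1:**
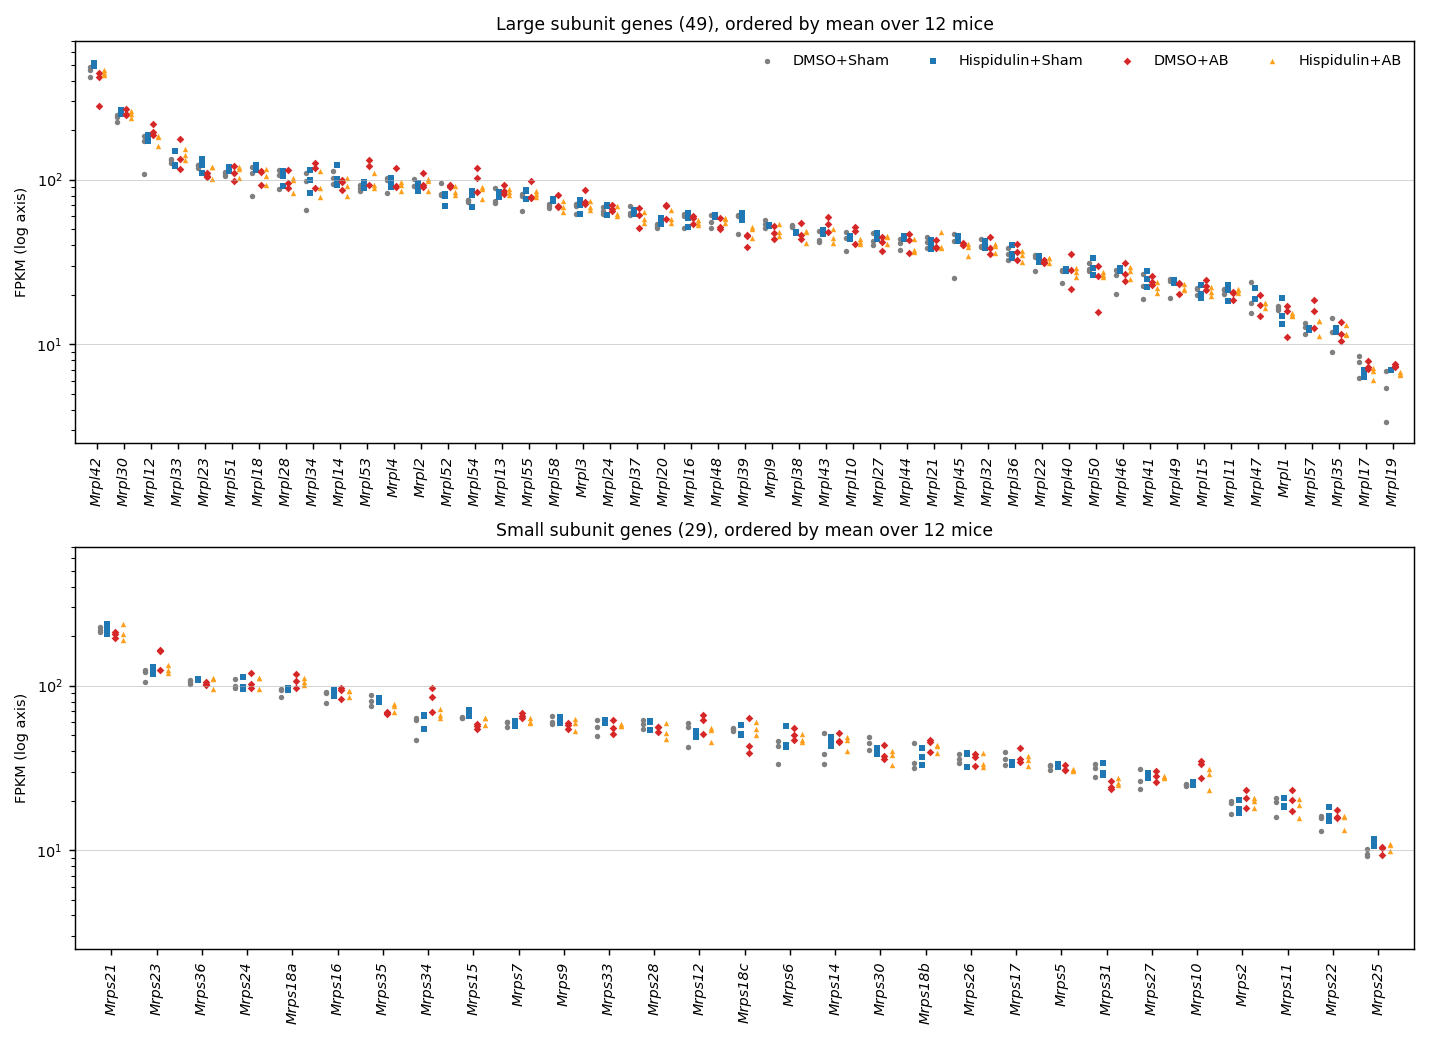
FPKM of each member in each of the 12 mice on a log axis, with large subunit genes above and small subunit genes below, ordered by mean level. Each point is 1 mouse, and colour and shape give the group. Members span 6.55 to 447 FPKM on average, while the 4 groups of a member lie close together.

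Mrpl42 stood at the top with 463, 483 and 421 FPKM in the DMSO+Sham mice, 513, 488 and 503 FPKM in Hispidulin+Sham, 448, 420 and 280 FPKM in DMSO+AB, and 468, 446 and 432 FPKM in Hispidulin+AB. DMSO+AB replicate 3 had the lowest value, and the other 11 mice lay between 420 and 513 FPKM. Mrpl30, the homolog of bacterial ribosomal protein L30, followed with a mean of 250 FPKM and a range of 223 to 268 FPKM over the 12 mice. Mrpl12 had a mean of 177 FPKM. Its protein, the homolog of bacterial L7/L12, forms the stalk of the large subunit and also binds mitochondrial RNA polymerase.

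Among small subunit genes, Mrps21 was highest with a mean of 214 FPKM and a range of 188 to 238 FPKM. Mrps23 had a mean of 129 FPKM (105 to 164 FPKM). Mrps36 had a mean of 106 FPKM and varied little, from 95.5 to 112 FPKM. The product of Mrps36 has since been assigned to the 2-oxoglutarate dehydrogenase complex (symbol Kgd4), so its place in the small subunit rests on its name.

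The lowest levels were those of Mrpl19 (6.55 FPKM), Mrpl17 (7.02 FPKM, 6.02 to 8.41 FPKM) and Mrps25 (10.3 FPKM, 9.17 to 11.7 FPKM). Genes near each other in the order of levels could be closer than the spread among mice, as for Mrps36 and Mrps18a (mean 100.2 FPKM), whose ranges over the 12 mice overlap. Levels were lower for members with a longer coding sequence (Spearman rho of -0.29, n = 78 genes) and higher for those with more G and C in the transcript (rho of 0.42, n = 78). Both are correlations across genes of the same libraries, and genes are not independent replicates.

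Levels of members differed little between mice of a group. The SD of log2(FPKM + 1) within groups had a median of 0.13 over the 78 members, against 0.17 over the 6592 tested genes of the same range of level, of which 25.9% had an SD under the members' median. The steadiest member was Mrps5 (SD 0.046), and the most variable were Mrpl34 (SD 0.29) and Mrpl50 (SD 0.25); these were named after their values were seen. The highest mouse exceeded the lowest by 1.38-fold in the median member and by more than 2-fold in 4 members, Mrpl19, Mrpl50, Mrps34 and Mrpl12.

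The means of large and small subunit genes followed each other from mouse to mouse. The mean log2(FPKM + 1) of large subunit genes lay between 5.54 and 5.75 in the 12 mice, and that of small subunit genes between 5.49 and 5.69. Large minus small was positive in 12 of 12 mice, from 0.04 to 0.11. By group this difference was 0.08 ± 0.03 (SD, n = 3) for DMSO+Sham, 0.10 ± 0.02 for Hispidulin+Sham, and 0.06 ± 0.02 for each of the banded groups. The ranges of all 4 groups overlapped.

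The products of Mrps30 and Mrps18a sit in the large subunit of mammalian mitoribosomes despite their names. With both counted as large subunit genes, the difference was 0.13 for DMSO+Sham, 0.14 for Hispidulin+Sham, and 0.10 for each of the banded groups. As a sum of FPKM, large subunit genes exceeded small subunit genes 1.93-fold to 2.09-fold in the 12 mice. All members together made up 0.873% to 0.972% of the summed FPKM of a library, and the group means of this share were 0.930% ± 0.049 for DMSO+Sham, 0.959% ± 0.012 for Hispidulin+Sham, 0.939% ± 0.017 for DMSO+AB and 0.923% ± 0.029 for Hispidulin+AB (SD, n = 3).

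**Figure D2:**
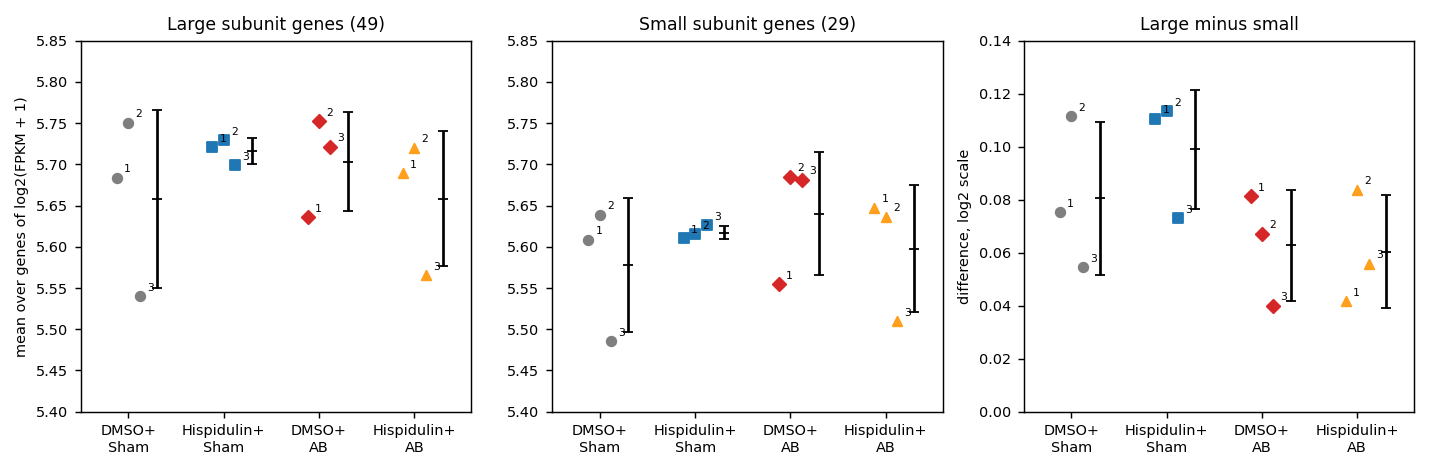
Mean log2(FPKM + 1) over the 49 large subunit genes (left) and the 29 small subunit genes (middle), and their difference (right), in each mouse, with the replicate number beside each point and the group mean ± SD in black. The left and middle axes do not start at 0. The lowest mice are DMSO+Sham replicate 3 and Hispidulin+AB replicate 3 in both subunits.

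A few libraries set much of this spread. DMSO+Sham replicate 3 was the lowest of all 12 mice in 30 of the 78 members, and its median deviation from the other 2 mice of its group was -0.15 on the log2 scale, against 0.05 over all tested genes. Hispidulin+AB replicate 3 was the lowest of 12 in 18 members, with a median deviation of -0.15. DMSO+AB replicate 3 was the highest of 12 in 28 members and the lowest of 12 in 11. Its deviations followed transcript GC content, with a Spearman rho of 0.60 over the 78 members and 0.66 over the 11520 tested genes with a GC value, and in Hispidulin+Sham replicate 3 the sign was opposite (-0.61 and -0.53). Some values below are also given without 1 or more of these libraries.

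The first comparison asked whether pressure overload changed these genes in mice that received DMSO. No member passed an adjusted p of 0.05 in DMSO+AB against DMSO+Sham (0 of 78, limma with Benjamini-Hochberg adjustment over the 11664 genes), whereas 608 genes (5.21%) did, 292 higher and 316 lower. At an unadjusted p under 0.05, 15 members (19.2%) stood out, 11 higher and 4 lower, against 2378 genes (20.4%). Differences in log2 were positive for 47 members, 29 of 49 large and 18 of 29 small. The median difference was 0.04 for large subunit genes, 0.06 for small subunit genes and -0.03 over all genes tested. With median-of-ratios scaling 53 members were positive, and with quantile normalization 44 were.

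The standard error of a member's log2 difference ran from 0.079 to 0.207. The 95% interval lay within 1 log2 unit of 0 for 78 of 78 members and within 0.5 for 58 of 78. Without DMSO+Sham replicate 3 the median difference was -0.02 for large and -0.00 for small subunit genes, and without both DMSO+Sham replicate 3 and DMSO+AB replicate 3 it was -0.05 and -0.02, with 32 of 78 members positive. The medians were 0.01 and 0.04 without DMSO+AB replicate 2, and without DMSO+AB replicate 3 alone 0.00 and 0.05. They were larger without DMSO+AB replicate 1 (0.09 and 0.07), without DMSO+Sham replicate 2 (0.05 and 0.10) and without DMSO+Sham replicate 1 (0.05 and 0.09). Of the 6 mice compared, leaving out DMSO+Sham replicate 3 was the single omission that made them negative.

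The labels give each animal a number, and the numbers fall into a series beginning with 52 and a series beginning with 67, except for 1 DMSO+Sham mouse. What the series stand for is not stated. Within the series beginning with 67 (2 mice against 1) the median over members of the difference between DMSO+AB and DMSO+Sham was 0.13 for large and 0.18 for small subunit genes. The DMSO+Sham mouse of this series is replicate 3, the lowest of 12 in 30 members. Within the series beginning with 52 (1 mouse against 1) this median was -0.00 and 0.06. A fit with the series as a covariate called 0 of 78 members and 142 of all genes (1.22%).

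**Figure D3:**
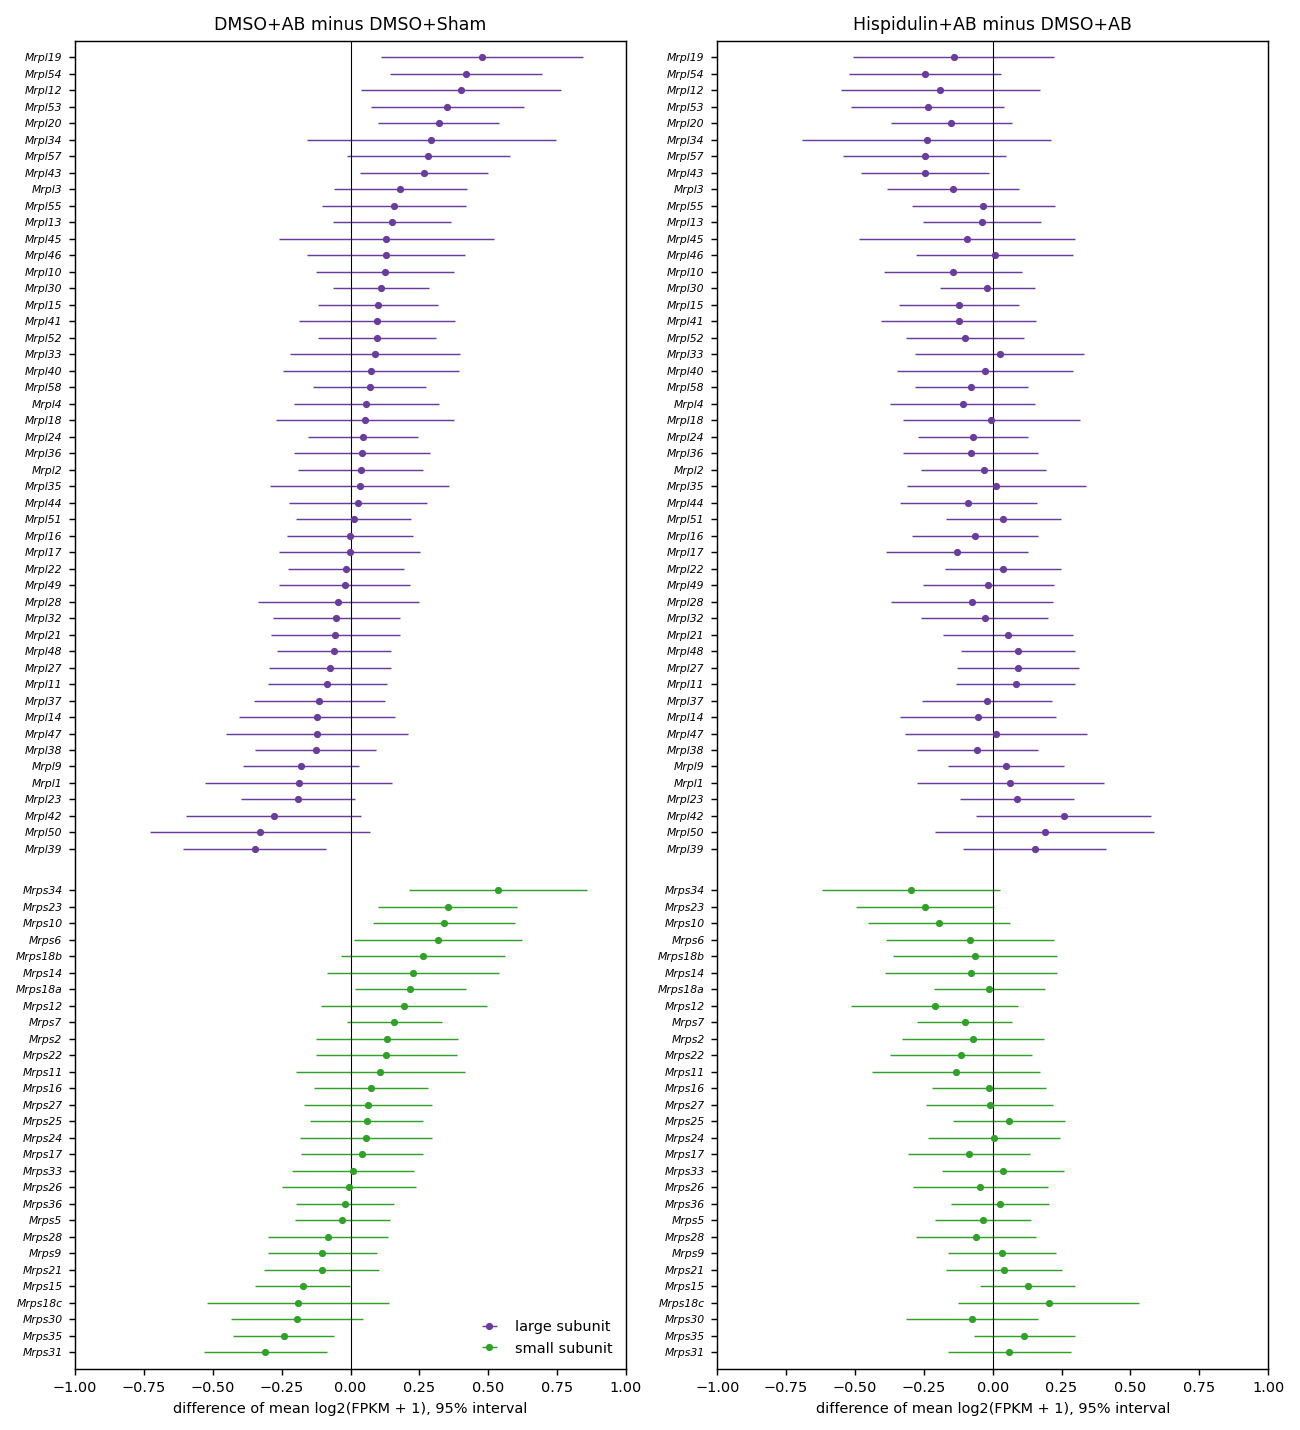
Difference of mean log2(FPKM + 1) for each member, with its 95% interval, between DMSO+AB and DMSO+Sham (left) and between Hispidulin+AB and DMSO+AB (right), in the same order of genes in both panels. Purple marks large and green marks small subunit genes. All 78 intervals stay within 1 log2 unit of 0 on both sides, and both panels use the same DMSO+AB mice.

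Mrps34, which encodes a small subunit protein with no bacterial counterpart, showed the largest positive difference. Its levels were 61.5, 63.4 and 46.9 FPKM in DMSO+Sham and 68.8, 84.9 and 97.0 FPKM in DMSO+AB. All 3 banded mice lay above all 3 sham mice. The difference on the log2 scale was 0.54 (SE 0.15), with an adjusted p of 0.0592 by limma with Benjamini-Hochberg adjustment. The value was 0.42 without DMSO+AB replicate 3, 0.40 without DMSO+Sham replicate 3 and 0.29 without both. Without DMSO+AB replicate 1 it was 0.67. In the GENCODE annotation, 763 of the 2064 exon bases of Mrps34 are shared with Nme3 on the same strand, and Nme3 itself had a log2 difference of 0.39 (SE 0.18). How reads of the shared bases were divided in the deposited FPKM is not known. Of the same 2064 bases, 1309 are shared with Mapk8ip3 on the opposite strand, which had a log2 difference of 0.01 (SE 0.09), and the strand setting of the counting is not known.

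Mrpl19 had the lowest level of all members, with 5.42, 6.87 and 3.36 FPKM in DMSO+Sham and 7.36, 7.61 and 7.26 FPKM in DMSO+AB. The banded mice lay above the sham mice, which spread over 2-fold. Banded minus sham was 0.48 on the log2 scale (SE 0.17, adjusted p of 0.129 by limma), and 0.24 without DMSO+Sham replicate 3. Its exons share 1962 of 5450 bases with Gcfc2 on the opposite strand.

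Mrpl54, a large subunit gene, measured 73.1, 75.4 and 75.7 FPKM in DMSO+Sham and 84.0, 102 and 117 FPKM in DMSO+AB. The groups did not overlap, and most of the spread was among the banded mice. This gave a log2 difference of 0.42 (SE 0.13, adjusted p of 0.0810 by limma). It was 0.31 without DMSO+AB replicate 3 and 0.54 without DMSO+AB replicate 1. Mrpl12 measured 172, 184 and 108 FPKM in DMSO+Sham and 186, 194 and 219 FPKM in DMSO+AB. Here the low value of DMSO+Sham replicate 3 set the size of the difference, which was 0.40 (SE 0.17, adjusted p of 0.198 by limma) with this mouse and 0.16 without it.

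Members on the other side were smaller in effect. Mrpl39 measured 60.2, 60.8 and 46.8 FPKM in DMSO+Sham and 46.1, 45.7 and 38.9 FPKM in DMSO+AB. All 3 banded mice were lower, by a log2 difference of -0.35 (SE 0.12, adjusted p of 0.121 by limma). This was -0.47 without DMSO+Sham replicate 3 and -0.27 without DMSO+AB replicate 3. Mrps31 measured 31.7, 33.4 and 27.9 FPKM in DMSO+Sham and 26.4, 23.7 and 24.3 FPKM in DMSO+AB, again without overlap (-0.31, SE 0.10, adjusted p of 0.107 by limma). For Mrps31 the difference was -0.38 without DMSO+Sham replicate 3 and -0.25 without DMSO+Sham replicate 2.

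For the 2 other members of this end, a single mouse decided the value. Mrpl50 measured 28.7, 31.2 and 27.8 FPKM in DMSO+Sham and 25.9, 29.8 and 15.7 FPKM in DMSO+AB, a log2 difference of -0.33 (SE 0.18) that was -0.07 without DMSO+AB replicate 3 and -0.51 without DMSO+AB replicate 2. For Mrpl42, whose levels are given above, the difference was -0.28 (SE 0.15) and -0.07 without the same mouse. Neither pair of groups was separate.

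Members at the positive and at the negative end differed in base composition. Mrps34, Mrpl54 and Mrpl12 had transcripts of 60.6%, 60.4% and 56.1% GC, and Mrpl39, Mrpl50, Mrps31 and Mrpl42 of 48.2%, 42.3%, 44.2% and 46.7%. Mrpl19 (47.1%) was the exception among the former. Across the 78 members the log2 difference and GC content had a Spearman rho of 0.31, and across 11520 tested genes of 0.17. Without DMSO+AB replicate 3 these were 0.07 and -0.10. The part of GC content in the differences was not tested.

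**Figure D4:**
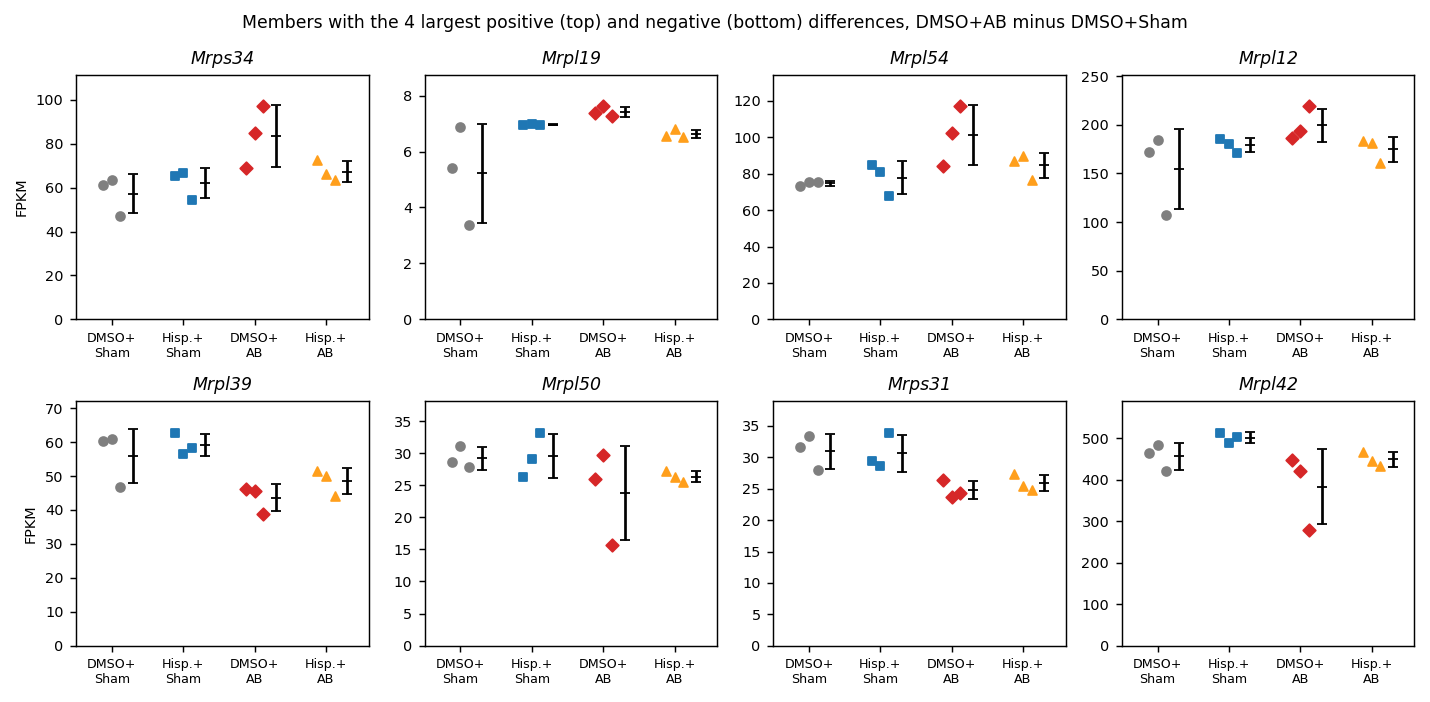
FPKM in each mouse, with the group mean ± SD (n = 3) in black, for the 4 members with the largest positive (top) and the 4 with the largest negative (bottom) log2 difference between DMSO+AB and DMSO+Sham. Each axis starts at 0. Mrpl50 and Mrpl42 each show 1 low DMSO+AB mouse, at 15.7 and 280 FPKM.

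Counted by overlap alone, 16 of 78 members (20.5%) had all 3 DMSO+AB mice on one side of all 3 DMSO+Sham mice, 10 higher and 6 lower. The share among all genes tested was 17.9%. By subunit there were 6 of 49 large and 10 of 29 small subunit genes. Besides the members described above, the higher ones included Mrps23 (0.35, SE 0.12) and Mrps18a (0.22, SE 0.09), and the lower ones Mrps21 (-0.10, SE 0.10).

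Under other settings of the fit some members passed the threshold in this comparison. With weights for library quality, Mrpl54 and Mrps34 were called higher and Mrpl39 and Mrps31 lower, with adjusted p from 0.0375 to 0.0494 by limma. These were 5.13% of members, against 12.2% of all genes under the same setting. Without DMSO+AB replicate 1, 6 members were called, Mrps34, Mrpl54, Mrps23, Mrpl53, Mrpl20 and Mrps10, all of them higher, or 7.69% of members against 8.18% of all genes. Of the 790 exon bases of Mrpl53, 695 are shared with the protein-coding gene Gm42688 on the same strand. Without DMSO+Sham replicate 2, Mrps34 and Mrpl19 were called (2.56% of members and 9.03% of genes), and without DMSO+Sham replicate 3, Mrpl39 was (1.28% and 4.24%). No member was called under all of these settings.

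Some members have known roles within the ribosome. Mrps12, the homolog of bacterial S12 at the decoding centre, measured 55.7, 58.9 and 42.4 FPKM in DMSO+Sham and 51.0, 61.8 and 66.6 FPKM in DMSO+AB (log2 difference 0.19, SE 0.14), and the difference was 0.05 without DMSO+Sham replicate 3 and 0.30 without DMSO+AB replicate 1. Mrpl11, the homolog of L11 at the base of the stalk, measured 20.3, 21.7 and 21.4 FPKM and 18.5, 20.4 and 20.7 FPKM (-0.08, SE 0.10, and -0.03 without DMSO+AB replicate 1). Mrpl58, a release factor-like hydrolase built into the large subunit, measured 71.0, 66.9 and 68.8 FPKM and 67.8, 68.9 and 81.1 FPKM (0.07, SE 0.09). This was -0.01 without DMSO+AB replicate 3 and 0.12 without DMSO+AB replicate 1. In each of these 3 genes the groups overlapped.

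The 3 Mrps18 genes are paralogs of each other and homologs of bacterial S18. Mrps18a, whose product lies in the large subunit, measured 96.0, 94.4 and 85.6 FPKM in DMSO+Sham and 96.3, 107 and 118 FPKM in DMSO+AB. Mrps18b had a log2 difference of 0.26 (SE 0.14) and Mrps18c of -0.19 (SE 0.15), with overlapping groups in both. With 1 mouse left out, Mrps18b ran from 0.16 (without DMSO+Sham replicate 2) to 0.41 (without DMSO+Sham replicate 3). Mrps18c ran from -0.40 (without DMSO+AB replicate 2) to -0.06 (without DMSO+AB replicate 3). Mrps30, the other small-subunit name in the large subunit, had a difference of -0.20 (SE 0.11).

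The second comparison asked whether hispidulin changed these genes in banded hearts. No member (0 of 78) and no gene (0%) passed the threshold in Hispidulin+AB against DMSO+AB by limma with Benjamini-Hochberg adjustment, and 1 member and 362 genes had an unadjusted p under 0.05. A negative log2 difference was found in 52 of 78 members, with medians of -0.04 for large and -0.04 for small subunit genes and 0.00 over all genes tested. Its 95% interval lay within 0.5 log2 units of 0 for 67 of 78 members. The majority rested on Hispidulin+AB replicate 3, since without it 40 of 78 members were positive, with medians of -0.00 for large and 0.01 for small subunit genes. With quantile normalization 41 of 78 were negative, and with median-of-ratios scaling 52 were. Without DMSO+AB replicate 3, 46 of 78 were negative, with medians of -0.05 for large and -0.00 for small subunit genes. The pattern was larger without DMSO+AB replicate 1, with medians of -0.09 and -0.09, 55 of 78 negative, and 10 members (12.8%) and 1296 genes (11.1%) at an unadjusted p under 0.05 by limma. In that fit 0 members and 20 genes passed the threshold. Without Hispidulin+AB replicate 2, 60 of 78 members were negative, with medians of -0.07 for large and -0.05 for small subunit genes. Only 3 members (3.85%) had non-overlapping groups, against 7.88% of all genes tested.

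The same DMSO+AB mice enter both comparisons, so members that are high in them tend to be positive in the first and negative in the second. Mrps34 measured 72.5, 66.1 and 63.4 FPKM in Hispidulin+AB, a log2 difference of -0.30 (SE 0.15) to DMSO+AB. Mrps23 measured 125, 163 and 164 FPKM in DMSO+AB and 125, 134 and 120 FPKM in Hispidulin+AB (-0.25, SE 0.12). In both genes the 2 groups overlapped through DMSO+AB replicate 1. Without DMSO+AB replicate 3 the difference was -0.18 for each of them, and for Mrps23 it was -0.37 without DMSO+AB replicate 1.

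Mrpl43 was the member with an unadjusted p under 0.05 (0.0396). It measured 47.9, 54.1 and 59.2 FPKM in DMSO+AB and 41.3, 49.8 and 44.3 FPKM in Hispidulin+AB, a log2 difference of -0.25 (SE 0.11, adjusted p of 0.996 by limma). Its exons share 507 of 1520 bases with Twnk, the gene of the mitochondrial DNA helicase, on the opposite strand. Mrpl57 measured 12.6, 15.8 and 18.6 FPKM in DMSO+AB and 13.7, 13.9 and 11.2 FPKM in Hispidulin+AB (-0.25, SE 0.14), and the difference was -0.12 without DMSO+AB replicate 3, -0.15 without Hispidulin+AB replicate 3 and -0.39 without DMSO+AB replicate 1.

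Values on the positive side also moved with single DMSO+AB mice. Hispidulin+AB minus DMSO+AB was 0.26 (SE 0.15) on the log2 scale for Mrpl42, 0.20 (SE 0.15) for Mrps18c, 0.19 (SE 0.18) for Mrpl50 and 0.15 (SE 0.12) for Mrpl39. They were 0.05, 0.07, -0.07 and 0.07 without DMSO+AB replicate 3. Mrps18c was 0.41 and Mrpl50 0.37 without DMSO+AB replicate 2, and without DMSO+AB replicate 1 Mrpl42 was 0.39 and Mrps18c 0.13. Mrps18c measured 42.9, 63.4 and 39.1 FPKM in DMSO+AB and 59.7, 50.3 and 54.6 FPKM in Hispidulin+AB, with the highest and the lowest values both among the DMSO+AB mice. Over the 78 members the difference and GC content had a Spearman rho of -0.33, and over the 11520 genes of -0.34. Without DMSO+AB replicate 3 the sign was opposite, at 0.10 and 0.15.

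In sham-operated mice, hispidulin likewise called no member (0 of 78) and no gene (0%) against DMSO by limma with Benjamini-Hochberg adjustment, with 1 member and 287 genes at an unadjusted p under 0.05. The difference was positive for 59 of 78 members, with medians of 0.05 for large and 0.03 for small subunit genes against -0.01 over all genes. Without DMSO+Sham replicate 3 it was positive for 36 of 78, with medians of -0.01 for both. The medians were 0.10 and 0.06 without DMSO+Sham replicate 2, with 5 members (6.41%) and 1096 genes (9.40%) at an unadjusted p under 0.05 by limma, and without DMSO+Sham replicate 1 they were 0.06 and 0.06. Without 1 of the Hispidulin+Sham mice they ran from 0.06 to 0.07 for large and from 0.03 to 0.055 for small subunit genes. The groups did not overlap in 10 members (12.8%), 9 of them higher, against 5.60% of all genes tested. Mrpl42, at 513, 488 and 503 FPKM against 463, 483 and 421 FPKM, was 1 of the 9 (0.14, SE 0.15, and 0.08 without DMSO+Sham replicate 3).

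Among mice that received hispidulin, banding gave 0 of 78 members and 0% of genes past the threshold. An unadjusted p under 0.05 by limma was found for 2 members (2.56%) and 847 genes (7.26%). With the replicate number as a block, 0 of 78 members and 17 genes passed. The difference was negative for 53 of 78 members, with medians of -0.06 for large and -0.03 for small subunit genes and -0.02 over all genes. Without Hispidulin+AB replicate 3 it was negative for 40 of 78, with medians of -0.01 for large and 0.03 for small subunit genes. With any other of the 6 mice left out, the medians ran from -0.09 to -0.06 and from -0.06 to -0.02. In 13 members (16.7%) the groups did not overlap, 12 of them lower, against 20.9% of all genes tested. Both members with an unadjusted p under 0.05 were lower members of the first comparison. Mrpl39 measured 62.7, 56.6 and 58.2 FPKM in Hispidulin+Sham and 51.5, 50.0 and 44.1 FPKM in Hispidulin+AB, a log2 difference of -0.28 (SE 0.12, adjusted p of 0.657 by limma).

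Mrps31 measured 29.4, 28.6 and 33.9 FPKM in Hispidulin+Sham and 27.4, 25.4 and 24.9 FPKM in Hispidulin+AB (-0.23, SE 0.10, adjusted p of 0.670 by limma). Mrpl39 and Mrps31 were thus lower after banding under DMSO and under hispidulin, in groups of mice that the 2 comparisons do not share. Neither passed the threshold in either comparison.

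The interaction, which asks whether the banding difference itself differed between hispidulin and DMSO, passed the threshold for 0 of 78 members and 0% of genes by limma, with 2 members, Mrpl43 and Mrpl19, and 289 genes at an unadjusted p under 0.05. Its median was -0.10 for large and -0.07 for small subunit genes against 0.02 over all genes. Without DMSO+Sham replicate 3 the medians were -0.03 and -0.02, and without DMSO+AB replicate 3 as well they were -0.03 and 0.02. Leaving out Hispidulin+AB replicate 3 alone gave -0.05 and -0.04. The medians were -0.15 and -0.09 without DMSO+Sham replicate 2, with 6 members (7.69%) and 969 genes (8.31%) at an unadjusted p under 0.05 by limma. Leaving out DMSO+AB replicate 1 gave -0.13 and -0.095, with 7 members (8.97%) and 846 genes (7.25%), and 3 genes and 0 members passed the threshold.

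Other genes of mitochondrial gene expression were taken from lists of known function. Of 5 genes of mitoribosomal proteins with other symbols, Dap3 and Ptcd3 among them, 0 passed the threshold after banding under DMSO by limma, and their median log2 difference was 0.03. Of 29 genes for assembly of the mitoribosome and processing of its RNA, 0 were called and 5 were positive, with a median of -0.22. Of 22 genes for mitochondrial aminoacyl-tRNA synthesis, 1 was called lower, 0 higher, and 2 were positive, with a median of -0.14.

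As a background, 5.21% of all genes tested were called in this comparison, so that 1 call in a list of this size is near that share. The called gene was Gatb, a subunit of the amidotransferase that makes mitochondrial glutaminyl-tRNA, at 24.7 ± 0.8 FPKM in DMSO+Sham and 17.9 ± 1.0 FPKM in DMSO+AB (SD, n = 3; log2 difference -0.44, SE 0.09, adjusted p of 0.0181 by limma). Of 16 mitochondrial translation factors, 1 was called, lower, again near the 5.21% of all genes, and 3 were positive, with a median of -0.08. This was Mtrf1, a mitochondrial release factor, at 7.40 ± 0.20 FPKM and 4.80 ± 0.51 FPKM (-0.54, SE 0.11, adjusted p of 0.0232 by limma). Of 6 genes of mitochondrial transcription, 0 were called and 0 positive, with a median of -0.12.

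The lists for assembly, aminoacyl-tRNA synthesis, translation factors and transcription had medians below 0 in the comparison in which the members' medians were 0.04 and 0.06 and that of all genes was -0.03. Over the 17 other settings, the median of the assembly list ran from -0.29 to -0.13, that of the aminoacyl-tRNA list from -0.21 to -0.09 and that of the translation factors from -0.17 to -0.02. The members' medians ran from -0.05 to 0.09 for large and from -0.02 to 0.10 for small subunit genes. The difference between lists was not tested. The assembly factors were expressed at a lower level, with a median of 10.8 FPKM, than the members, and had a median transcript GC content of 53.1% against 50.0%.

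Ribosomal proteins of the cytosol, whose ribosome translates the members themselves, were measured in 81 tested genes. Of these 1 was called higher and 1 lower after banding under DMSO by limma, 61 were positive, and the median log2 difference was 0.09. In Hispidulin+AB against DMSO+AB, 0 of the genes of these 6 lists were called, and the medians ran from -0.04 for mitochondrial transcription to 0.03 for translation factors.

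**Figure D5:**
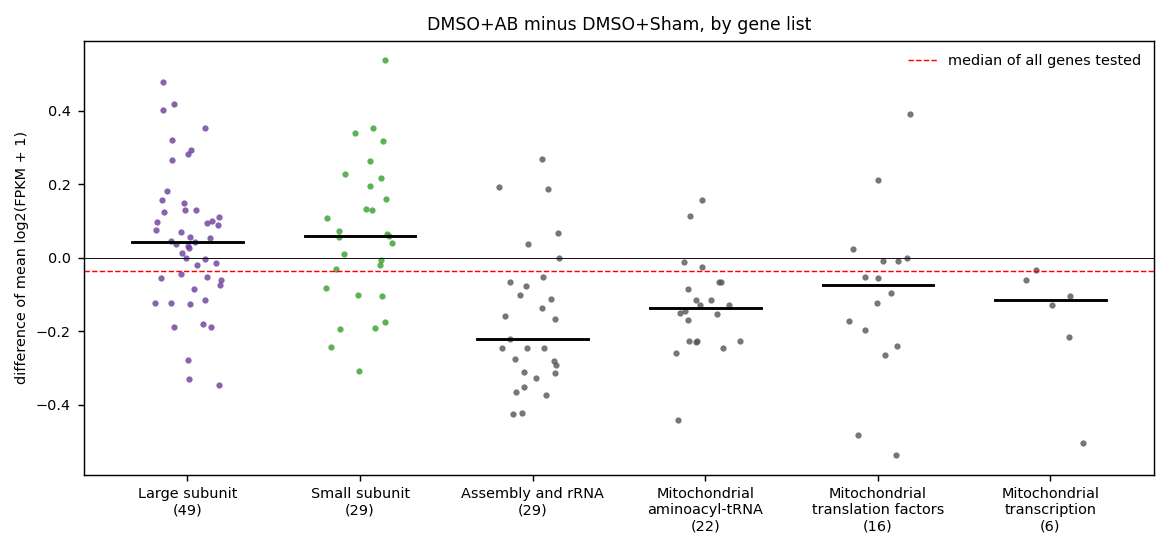
Difference of mean log2(FPKM + 1) between DMSO+AB and DMSO+Sham for each tested gene of 6 lists, with the number of genes below each name. Black bars mark list medians (0.04 and 0.06 for large and small subunit genes, -0.22 for assembly and rRNA processing), and the dashed line marks the median of all genes tested (-0.03). Points are spread sideways only for legibility.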

How the data were processed

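RNA of 12 left ventricles was analysed, with each sample's group read from its label. The authors deposited FPKM in 1 table, rounded to 0.01, from single-end reads of a BGISEQ-500. The submitters' processing notes name HISAT2 2.0.4, Bowtie2 2.2.5 and RSEM 1.2.12 without roles. Genome build, annotation and strand setting are not given in the sources used here, and depth is unknown. Symbols were matched by NCBI Gene identifier (17947 of 18079 genes).

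FPKM were transformed as log2(FPKM + 1). Genes at 1 FPKM or above in 3 or more libraries (11664) were fitted in R 4.3.3 with limma 3.58.1, 1 mean per group, over all 12 libraries, and contrasts were tested two-sided by eBayes (trend on), with Benjamini-Hochberg adjustment over all 11664 genes. The fit was tested on simulated data. Each library carries its own animal number. GC content, coding length and shared exons came from GENCODE (GRCm38.p6).

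Members, gene lists and tests were chosen with earlier results of these data known. Genes were named by level, by role and by the 4 largest differences each way after banding (DMSO) and after hispidulin (banded mice).

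Same-numbered replicates deviated together in Hispidulin+Sham and DMSO+Sham (correlations of 0.126 to 0.33) and in Hispidulin+AB and Hispidulin+Sham (0.147 to 0.228). In Hispidulin+AB and DMSO+AB 1 pair did not (-0.183 to 0.3), and in DMSO+AB and DMSO+Sham no pair did (-0.198 to -0.024). Alternatives covered the value added, the filter, the scaling, library weights, the animal number series, the libraries fitted, a replicate block, and each replicate left out.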

Additional observations from a re-analysis of the deposited data

Results flagged for a closer look

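Mrpl19 was higher after banding under DMSO (log2 difference of 0.48) and slightly lower after banding under hispidulin (-0.06). Neither difference was called. All 3 DMSO+AB mice (7.36, 7.61 and 7.26 FPKM) lay above all 3 DMSO+Sham mice (5.42, 6.87 and 3.36 FPKM), while all 3 Hispidulin+AB mice (6.54, 6.80 and 6.53 FPKM) lay below all 3 Hispidulin+Sham mice (6.96, 6.99 and 6.93 FPKM). In the same way, hispidulin was on the higher side in sham-operated mice and on the lower side in banded mice. Among all genes tested, 17.9% had non-overlapping groups after banding under DMSO and 20.9% after banding under hispidulin. The interaction, which is the same number for both views, was -0.54 (SE 0.24), with an unadjusted p of 0.0418 and an adjusted p of 0.9995 by limma, so it did not pass the threshold. Without DMSO+Sham replicate 3, whose value was the lowest, it was -0.30 (SE 0.15, unadjusted p of 0.0665 by limma). At an unadjusted p under 0.05 by limma, 2 members (2.56%) and 2.48% of all genes tested stood out in the interaction. Mrpl19 had the lowest level of all members.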

How the results depend on the processing

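Over all alternatives, 550 of 572 values kept their side of the threshold or, for medians, moved by less than 1 SD between mice, although medians near 0 could change sign. In DMSO+AB against DMSO+Sham, 4 members were called with library weights, and 0 to 6 with 1 replicate left out, where 91 to 1053 of all 11664 genes were called (954 in the fit that gave 6). Leaving out DMSO+Sham replicate 3 and DMSO+AB replicate 3 together, chosen after seeing the data, moved the median difference of large subunit genes to -0.0466 and of small subunit genes to -0.0242, and the interaction median of small subunit genes to 0.0196. Moving Mrps30 and Mrps18a to the large subunit gave a large minus small difference of 0.1278 for DMSO and 0.1351 for hispidulin in sham-operated mice, and of 0.1049 and 0.1024 in banded mice. Mrpl50 in Hispidulin+AB against DMSO+AB was -0.0737 without DMSO+AB replicate 3, the lowest value with 1 replicate left out, and 0.3667 at the highest. The causes were not tested.

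With the replicate number as a block, 0 members were called in every comparison, and the medians after banding under DMSO were 0.0416 and 0.0585. Over all genes the block gave 640 calls in place of 608 after banding under DMSO, and 17 in place of 0 after banding under hispidulin. Fitting only the libraries compared gave 11 and 49. With library weights these counts were 1423 and 209, with the animal number series 142 and 0, and without a filter on low values 383 and 2. The depth is unknown, so counting error could not be given for any value.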
